A study of Mus musculus with 20 samples.

Results

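The genes described here are 10 genes of infiltrating and lipid-associated macrophages, Emr1, Cd68, Msr1, Lyz2, Trem2, Gpnmb, Lgals3, Cd9, Cd63 and Atp6v0d2, read in liver and white adipose tissue (WAT) of obese mice with and without CD44. They were chosen by symbol: a probe belongs to them when its gene name, or the current symbol of its accession, is one of the 10, which gave 18 of the 41174 probes and 10 of the 27670 gene symbols on the array. Emr1 carries the current symbol Adgre1. The groups were wild-type mice on a high-fat diet, WT(HFD), and CD44-deficient mice on the same diet, CD44KO(HFD), with 5 arrays for each genotype in each tissue. All were males of the C57BL/6 background at 7 months of age, fed a diet of 35% fat for 21 weeks, and the deficient line, a null for the gene, had been backcrossed onto C57BL/6J. RNA came from whole tissue, and none of these arrays held a lean animal, so each value compares 2 genotypes that were both obese. The study measured mice on a normal diet by other methods. In RNA of whole tissue, fewer cells of a type and less RNA of a gene per cell cannot be told apart.

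Macrophages of obese tissue differ in origin and in what they do. Emr1, Cd68, Msr1 and Lyz2 are carried by macrophages in general, the resident Kupffer cells of the liver included, whereas macrophages that meet dying, lipid-loaded cells switch on a programme for taking up and breaking down lipid, led by the receptor Trem2. Gpnmb, Lgals3, Cd9 and Cd63 belong to that programme, and Atp6v0d2 supplies a subunit of the proton pump that acidifies lysosomes. Lgals3, Cd9 and Cd63 are also made by other cell types, which a whole tissue contains.

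Values are log2 signals relative to the 75th percentile of their own array, so that 0 stands for that percentile and a difference of 1 is a change of 2-fold. The deleted gene was low where the labels say it should be: the brightest Cd44 probe was lower in CD44KO(HFD) by 4.21 on the log2 scale in liver and by 4.57 in WAT. Signal of the 75th percentile ran from 433 to 575 on the liver arrays and from 1541 to 2792 on the WAT arrays. The WAT array WT(HFD) replicate 1 stood apart, with 89.5% of its spots well above background against 63.2% to 69.5% on the other 9, and the counts, the medians and the summed levels in WAT are set beside their values without it. Liver and WAT were read on different slides and by different scanners, so that tissue, slide and scanner cannot be told apart. On the liver slides WT(HFD) samples lay in positions 1 and 2 and CD44KO(HFD) samples in positions 2 to 4, and the part of position in the liver differences was not tested.

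Some of the 60-base probes behind the results are shown, 5′ to 3′, because the calls in liver and a disagreement in WAT rest on them.
Trem2, the dimmer of 2 probes: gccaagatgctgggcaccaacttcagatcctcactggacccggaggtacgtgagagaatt
Lgals3: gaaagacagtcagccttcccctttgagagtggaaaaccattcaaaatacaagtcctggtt
Cd63: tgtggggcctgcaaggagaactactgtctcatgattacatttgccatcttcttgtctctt
Lyz2, the dimmer of 2 probes: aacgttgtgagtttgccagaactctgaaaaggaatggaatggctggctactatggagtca
In build mm7, the one named in the files' header, the Trem2 probe lies at chr17:46496563-46496699, the Lgals3 probe at chr14:42712515-42713331 and the Cd63 probe at chr10:128413370-128413583, all on the plus strand. Each of these spans more genome than its 60 bases, so it reads across a splice junction. The Lyz2 probe lies at chr10:116790004-116790063 on the minus strand. The brighter probes of Trem2 and Gpnmb lie at chr17:46496865-46496924 and chr6:49016437-49016496 on the plus strand, and that of Cd9 at chr6:125482335-125482394 on the minus strand.

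In liver the lipid-associated genes were lower without CD44, while none of the general macrophage markers passed the test. By limma over all probes, 5 of the 9 genes that could be tested fell in CD44KO(HFD) liver (Trem2, Gpnmb, Lgals3, Cd9 and Cd63) and 0 rose, where 6.09% of the 17067 genes tested on the whole array fell and 7.71% rose. The median log2 difference of the 9 genes was -0.86, against 0.07 over all genes. The other 4, Emr1, Cd68, Msr1 and Lyz2, did not pass the test, and Atp6v0d2 was not tested because it was well above background on 1 of the 10 liver arrays. Lgals3 and Cd63 are in the study's own list of genes lower in this liver, which was chosen on these samples, so that their direction is not independent evidence.

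**Figure D1:**
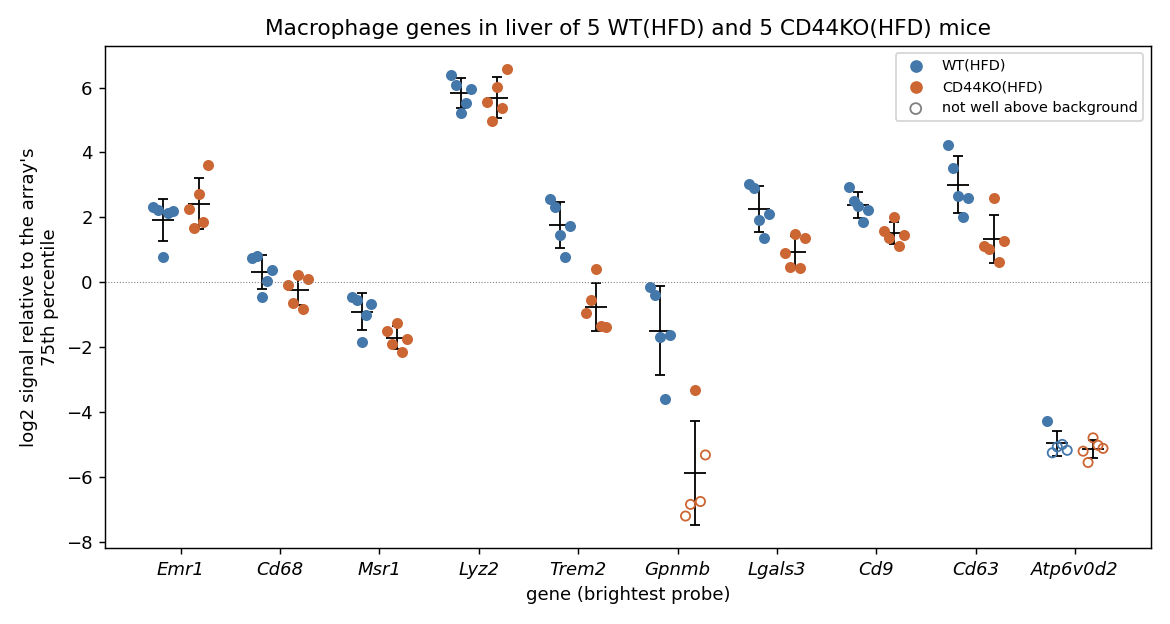
Log2 signal of the brightest probe of each gene in liver, relative to the 75th percentile of the array, for 5 WT(HFD) and 5 CD44KO(HFD) mice. Each point is an array, open points were not well above background, and bars give the mean and SD; the Trem2 groups lie apart, while those of Emr1 and Lyz2 cover each other.

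Among the general markers, Emr1 encodes the surface protein by which mouse macrophages are usually recognised. Its WT(HFD) livers read 2.31, 2.22, 0.78, 2.15 and 2.19 in replicates 1 to 5, and its CD44KO(HFD) livers 2.26, 1.67, 2.71, 1.86 and 3.63. The difference was 0.50 ± 0.40 (SE, n = 5 per group; limma adjusted p = 0.43), with a 95% interval from -0.40 to 1.40. WT(HFD) replicate 3 was the lowest array and CD44KO(HFD) replicate 5 the highest, and the other 8 were mixed. Its second, dimmer probe gave 0.51 with 6 of 10 arrays well above background.

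Cd68 encodes a glycoprotein of macrophage lysosomes. WT(HFD) livers read 0.75, 0.82, -0.44, 0.05 and 0.37, and CD44KO(HFD) livers -0.10, -0.63, 0.24, -0.83 and 0.11. Each CD44KO(HFD) value was under the mean of WT(HFD), yet the groups overlapped, and the difference of -0.55 ± 0.28 (SE, n = 5 per group) had a limma adjusted p of 0.204.

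Msr1, a scavenger receptor that takes up modified lipoproteins, came nearest to a call among the general markers. By its brightest probe WT(HFD) livers read -0.46, -0.54, -1.85, -1.01 and -0.65, and CD44KO(HFD) livers -1.49, -1.89, -1.26, -2.14 and -1.74. Apart from WT(HFD) replicate 3, every WT(HFD) array was above every CD44KO(HFD) array. The difference was -0.80 ± 0.27 (SE, n = 5 per group; limma adjusted p = 0.0713). With each liver array left out in turn, Msr1 passed in 2 of 10 fits. The limma adjusted p then ran from 0.0242, without WT(HFD) replicate 3, to 0.155. The other 2 probes of Msr1 gave -0.40 and -0.47, with adjusted p of 0.303 and 0.408.

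Lyz2, the lysozyme of macrophages and other myeloid cells, overlapped between genotypes. Its brightest probe read 6.40, 6.08, 5.22, 5.53 and 5.95 in WT(HFD) livers and 5.54, 4.96, 6.00, 5.36 and 6.58 in CD44KO(HFD) livers. The groups overlapped over nearly their whole range, and the difference was -0.15 ± 0.31 (SE, n = 5 per group; limma adjusted p = 0.779), with a 95% interval from -0.84 to 0.54. Lyz1, a near-identical neighbour whose transcripts these probes may also catch, gave -0.21 (adjusted p = 0.676).

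Trem2, the lipid-sensing receptor that signals through the adaptor Tyrobp, was the only 1 of the 9 genes tested whose liver groups did not overlap. Of all genes tested, 4.38% were lower without overlap. The brighter probe read 2.58, 2.32, 1.46, 0.77 and 1.73 in WT(HFD) livers and -0.94, -0.55, 0.42, -1.34 and -1.39 in CD44KO(HFD) livers. The lowest WT(HFD) array was replicate 4, and the highest CD44KO(HFD) array was replicate 3. Trem2 fell by 2.53 ± 0.41 (SE, n = 5 per group) on the log2 scale, which is 5.77-fold, with a limma adjusted p of 0.0103. Permuting the genotype labels of the 10 arrays in every possible way (exact test, two-sided) gave p = 0.0079, the smallest it allows. Its dimmer probe, whose sequence is shown above, read 0.77, 0.68, -0.40, -0.93 and -0.09 against -2.70, -2.33, -1.51, -3.13 and -3.51, and fell by 2.64 (adjusted p = 0.0103). Within the 3 liver slides the differences of the brighter probe were -2.49, -2.64 and -2.39. The call stood under every one of the 21 alternatives that gave a test, with differences from -2.82 to -2.27. Tyrobp, the adaptor, gave -0.05 ± 0.28 in the same livers (SE, n = 5 per group; limma adjusted p = 0.916).

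Gpnmb, a transmembrane glycoprotein of lipid-laden macrophages, was dim in most CD44KO(HFD) livers. WT(HFD) livers read -0.13, -0.38, -1.69, -3.61 and -1.62, all well above background. CD44KO(HFD) livers read -7.20, -6.84, -3.33, -6.75 and -5.32, of which replicate 3 alone was well above background. That array lay just above the lowest WT(HFD) array, replicate 4. Gpnmb fell by 4.40 ± 0.84 (SE, n = 5 per group) on the log2 scale with a limma adjusted p of 0.0157. The fold is uncertain, because 4 of the 5 CD44KO(HFD) signals were too dim to be measured: as read it was 21.2-fold, and it was 8.34-fold when each dim signal was set to the faintest one that its array could still tell from background. With background taken off by normexp, the difference was -1.63 and the call was lost (adjusted p = 0.0843, in a range from 0.00232 to 0.0843 over the 21 alternatives). The second Gpnmb probe was well above background on 0 of 10 liver arrays.

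Lgals3 encodes galectin-3, a carbohydrate-binding protein that macrophages make in quantity. WT(HFD) livers read 3.04, 2.91, 1.91, 1.37 and 2.10, and CD44KO(HFD) livers 0.89, 0.48, 1.48, 0.45 and 1.37. CD44KO(HFD) replicate 3 was again the highest of its group, and the only one above any WT(HFD) array, replicate 4. Lgals3 fell by 1.33 ± 0.34 (SE, n = 5 per group) on the log2 scale, with a limma adjusted p of 0.0319.

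Cd9 and Cd63 encode tetraspanins, membrane organisers of which Cd63 marks late endosomes and lysosomes. For Cd9, WT(HFD) livers read 2.95, 2.51, 2.35, 1.86 and 2.23, and CD44KO(HFD) livers 1.59, 1.38, 2.02, 1.12 and 1.47. Cd9 fell by 0.86 ± 0.21 (SE, n = 5 per group) on the log2 scale with a limma adjusted p of 0.0287. For Cd63, WT(HFD) livers read 4.25, 3.52, 2.66, 2.003 and 2.60, against 1.12, 1.02, 2.59, 0.63 and 1.29. In each of these genes the only overlap was that CD44KO(HFD) replicate 3 lay above WT(HFD) replicate 4. Cd63 fell by 1.68 ± 0.46 (SE, n = 5 per group) on the log2 scale with a limma adjusted p of 0.0395. Neither of the other 2 probes named Cd9 was well above background on any liver array, and 1 of them lies on the opposite strand, 35638 bases from the first, so whether it reads Cd9 is uncertain.

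The calls of Lgals3, Cd9 and Cd63 rested on the full set of arrays. With each liver array left out in turn, Trem2 and Gpnmb passed in 10 of 10 fits, Lgals3 in 4, and Cd9 and Cd63 in 2 each. Leaving out WT(HFD) replicate 1, 2 or 5 or CD44KO(HFD) replicate 1, 2 or 4 left 2 of the genes called, leaving out CD44KO(HFD) replicate 5 left 3, and leaving out CD44KO(HFD) replicate 3 gave 6. Their differences moved little in those fits, from -1.56 to -1.14 for Lgals3, from -0.99 to -0.72 for Cd9 and from -1.99 to -1.37 for Cd63. With slide as a block all 5 genes passed.

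Other genes of the lipid-associated programme were mostly lower too. Of 30 further genes 28 were tested, of which 27 were lower, 8 fell and 0 rose, with a median difference of -0.51. Itgax, the integrin chain CD11c, fell by 2.01 (limma adjusted p = 0.0284). Clec7a, a receptor for fungal glucans, fell by 1.71 (adjusted p = 0.0303). Anxa5, a binder of exposed phosphatidylserine, fell by 1.58 (adjusted p = 0.0142). Spp1, which encodes the CD44 ligand osteopontin and is also read in bile duct cells, fell by 1.54 (adjusted p = 0.0302). Itgax and Clec7a are also in the study's list, chosen on these samples. For Spp1 the study had itself reported, by QRT-PCR, a smaller induction in CD44KO(HFD) liver. Spp1 and Itgax were counted in 2 lists each, as were Ctsz and Lipa below.

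Genes of monocytes and macrophages outside the 10 showed both directions. Of 25 tested, 5 fell and 0 rose, with 18 lower, 7 higher and a median of -0.40. The genes that fell were Cx3cr1, a chemokine receptor of monocytes and their offspring (-2.38, limma adjusted p = 0.0156, measured above background in 2 CD44KO(HFD) livers), Itgax, Ccr2, the receptor that brings monocytes out of the marrow (-1.81, adjusted p = 0.0298), Mpeg1, a pore-forming protein of macrophages (-0.96, adjusted p = 0.0103), and Ly6c1 (-0.91, adjusted p = 0.0124). Cx3cr1, Itgax, Ccr2 and Ly6c1 were named by the study from these arrays, so that their direction is not independent evidence.

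Lists built around the molecular roles of the 10 genes moved less as wholes. In the TREM and DAP12 signalling list all 13 genes tested were lower, with a median of -0.27, and 2 of them fell: Blnk, an adaptor of Syk signalling (-1.71, limma adjusted p = 0.0128), and Lat2 (-1.28, adjusted p = 0.0404). Of 35 lysosomal genes 6 fell and 2 rose, with a median of -0.01. Among those that fell were the hydrolases Galns (-0.70, adjusted p = 0.0318), Ctsz (-0.52, adjusted p = 0.0353), Hexa (-0.50, adjusted p = 0.026) and Lipa, the lipase that frees cholesterol and fatty acids in lysosomes (-0.48, adjusted p = 0.0103). Of 20 subunits of the proton pump 1 fell, Atp6v0e2 (-0.49, adjusted p = 0.0414), and Atp6v0d1, the widely expressed counterpart of Atp6v0d2, gave 0.03 (adjusted p = 0.793).

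Relatives of the tetraspanins and the galectin went both ways. Of 21 other tetraspanins 3 fell and 1 rose: Tspan13 fell by 0.999 (limma adjusted p = 0.000755), Tspan17 by 0.57 (adjusted p = 0.0319) and Tspan3 by 0.54 (adjusted p = 0.0204), while Tspan33 rose by 1.07 (adjusted p = 0.0141). Cd81, a close relative of Cd9, gave -0.26 (adjusted p = 0.26). Of 5 other galectins Lgals1 fell by 1.23 (adjusted p = 0.0268) and Lgals9 rose by 0.34 (adjusted p = 0.0326). Of 14 other scavenger and lipid-uptake receptors 0 fell and 2 rose, Marco and Timd4, which are also markers of Kupffer cells.

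Markers of Kupffer cells, the resident macrophages of the liver, were mostly higher. Of 12 tested, 11 were higher in CD44KO(HFD), 2 of them past the threshold, with a median of 0.54. Marco, a scavenger receptor, rose by 2.95 ± 0.82 (SE, n = 5 per group; limma adjusted p = 0.041). Timd4, a receptor for dying cells, rose by 2.99 ± 0.83 (adjusted p = 0.0414), and 3 of the 5 WT(HFD) livers showed it well above background. Their summed level, in units of the 75th percentile of an array, was 79.9 to 139 in WT(HFD) and 135 to 249 in CD44KO(HFD). All 12 were well above background on some liver array. Per array the mean of the list relative to WT(HFD) was lowest in WT(HFD) replicate 3, at -1.26, the array that was also lowest for Emr1. It was highest in CD44KO(HFD) replicate 5, at 1.46, the array highest for Emr1 and Lyz2. The groups overlapped by this mean, with WT(HFD) replicate 4, at 0.90, above CD44KO(HFD) replicates 2 and 4, at 0.81 and 0.84.

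**Figure D2:**
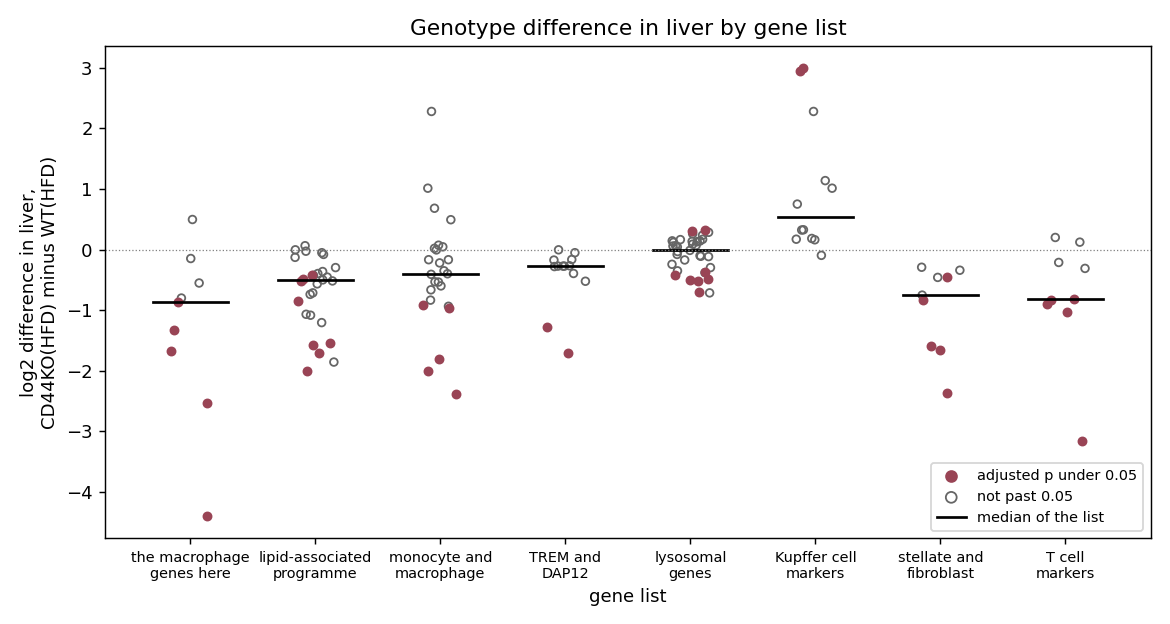
Log2 difference between CD44KO(HFD) and WT(HFD) liver for each tested gene of 8 lists, the first being the 9 tested macrophage genes described here. Filled points passed an adjusted p of 0.05 by limma and bars give the list medians, which run from -0.86 in the first list to 0.54 for Kupffer cell markers.

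Markers of some other cell types were mostly lower in CD44KO(HFD) liver as well. Of 9 markers of stellate cells and fibroblasts 5 fell, Col1a1 (-2.38), Col1a2 (-1.67), Col3a1 (-1.60), Pdgfrb (-0.83) and Dcn (-0.45), with all 9 lower and a summed level of 102 to 158 in WT(HFD) and 65.2 to 100.5 in CD44KO(HFD). Of 9 T cell markers 7 were lower, while Cd3e (0.12) and Cd4 (0.20) were higher without a call. Those that fell numbered 5, among them Cd3d (-1.04) and Cd8a. Cd8a was well above background in all WT(HFD) and in 0 of the 5 CD44KO(HFD) livers. It was 4.59-fold lower when each dim signal was set to the faintest one that its array could still tell from background. The summed level of the T cell markers was 2.83 to 4.41 against 2.28 to 2.92. Of the T cell markers Cd247 was well above background on no liver array. Of 5 bile duct markers Spp1 and Sox9 fell, and the summed level, nearly all of it Spp1, was 18.9 to 78.5 against 9.03 to 19.5; without Spp1 it was 1.27 to 1.93 against 0.966 to 1.26. Cftr was never well above background.

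The remaining marker lists held few calls in liver. Of 7 dendritic cell markers 2 fell, of 7 osteoclast markers 1, of 6 adipocyte markers 1 and of 5 platelet markers 1. All 9 hepatocyte markers were higher and 1 of them rose, with a median of 0.38. Their summed level was 1674 to 2396 in WT(HFD) and 2229 to 2681 in CD44KO(HFD). Of 5 neutrophil markers 1 rose, while the other 4 were lower without a call. B and plasma cells, mesothelium and epididymis had 0 calls among 6, 3 and 4 markers. Cd8a, Col1a1, Col3a1, Lgals1 and Marco are in the study's list as well. The part of any of these cell types in the differences of the 10 genes was not tested.

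The lipid-associated genes kept nearly the same order of mice. In Trem2, Gpnmb, Lgals3, Cd9 and Cd63, WT(HFD) replicates 1 and 2 were the highest and replicate 4 the lowest of the WT(HFD) livers, and replicate 3 was the highest CD44KO(HFD) liver. Averaged over these 5 genes relative to the WT(HFD) mean, WT(HFD) arrays read 0.95, 0.59, -0.25, -1.11 and -0.18, and CD44KO(HFD) arrays -2.49, -2.49, -0.95, -2.77 and -2.10. The sizes in CD44KO(HFD) are uncertain, because Gpnmb, taken in at its difference as read of -4.40, was well above background in 1 of those livers. Averaged over Emr1, Cd68, Msr1 and Lyz2, the values were 0.46, 0.35, -0.87, -0.11 and 0.17 against -0.24, -0.77, 0.13, -0.73 and 0.35.

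The first mean less the second, a measure of lipid-associated relative to general macrophage signal, was 0.00 ± 0.67 (SD, n = 5) in WT(HFD) and -1.91 ± 0.54 (SD, n = 5) in CD44KO(HFD). The highest CD44KO(HFD) array, at -1.08, lay below the lowest WT(HFD) array, at -0.997, by less than the SD of either group. The first mean holds the 5 genes called in liver and the second the tested genes that were not called. The separation therefore restates those calls and is not separate evidence. The general markers were also mixed, from -0.80 for Msr1 to 0.50 for Emr1. The size of -1.91 also takes in the dim Gpnmb signals. Stellate and fibroblast markers followed a like order: relative to WT(HFD) their mean was 0.48, 0.06, -0.004, -0.46 and -0.07 in WT(HFD) replicates 1 to 5 and -1.25, -1.22, -0.28, -1.34 and -0.79 in CD44KO(HFD), where replicate 3 was again the highest.

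**Figure D3:**
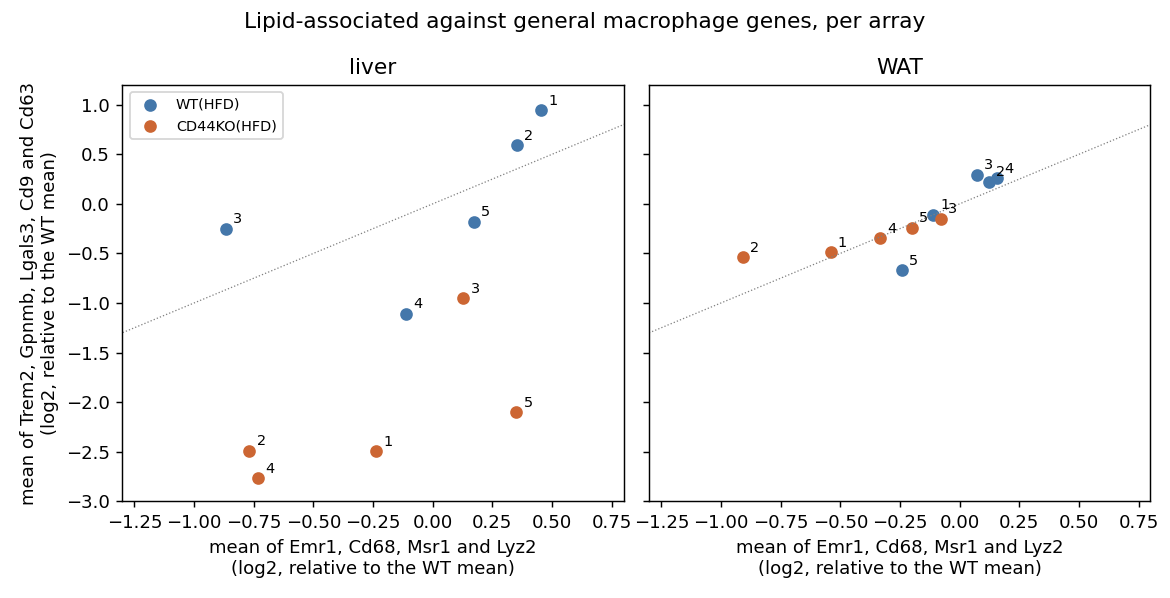
Mean log2 signal of the 5 lipid-associated genes against that of the 4 general macrophage genes, per array and relative to the WT(HFD) mean, in liver (left) and WAT (right); numbers are replicates and the dotted line marks equal change. The CD44KO(HFD) livers lie 0.95 to 2.77 below the WT(HFD) mean on the vertical axis at general values from -0.77 to 0.35, while the WAT arrays lie along the line. The vertical mean holds the 5 genes called in liver, with dim Gpnmb signals in most CD44KO(HFD) livers.

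Outside the 10 genes, those whose pattern over the 10 liver arrays was most like the mean of the 9 tested genes, among 17041 genes compared, were Arhgap25 (Pearson r = 0.992), Efemp2 (0.991), Zfp251 (0.991), Gpx8 (0.991) and Tpm1 (0.991). After each genotype's mean was taken off, they were Efemp2 (0.988), Ptpre (0.984), Cdca4 (0.984), Arhgap25 (0.980) and Zfp251 (0.980). Efemp2 encodes a protein of elastic fibres, and Arhgap25 a regulator of Rac in blood cells. These values describe likeness over arrays that share slides and were picked as the highest of many, so they carry no test.

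In WAT none of the 10 genes passed the test between CD44KO(HFD) and WT(HFD). By limma 0 of 10 genes were called, where 0.0487% of the 18474 genes tested were called in either direction, and 2, Cd68 and Msr1, had an unadjusted p under 0.05. By the brightest probe 9 genes were lower and 1, Lyz2, was higher, with a median difference of -0.35 against 0.0020 over all genes. Without WT(HFD) replicate 1, the array that stood apart, 0 of 10 were called as well, and the differences ran from -0.71 to -0.02 with a median of -0.37. With arrays weighted by quality, under which 10.2% of all probes passed, 2 genes did, Msr1 (-0.53, adjusted p = 0.0225) and Cd63 (-0.44, adjusted p = 0.0351). Msr1 and Emr1 are in the study's own list of genes lower in WAT, chosen on these samples. By QRT-PCR the study also reported significantly lower Emr1 and Lgals3 in CD44KO(HFD) WAT, and its tissue staining showed fewer macrophage clusters there.

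**Figure D4:**
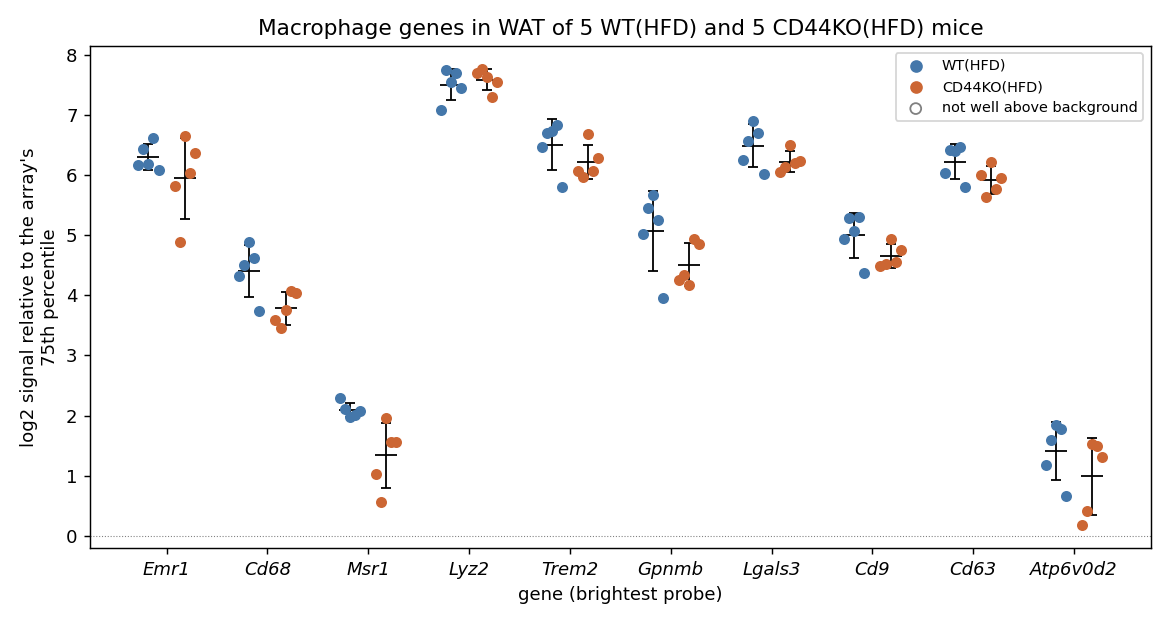
Log2 signal of the brightest probe of each gene in WAT, relative to the 75th percentile of the array, for 5 WT(HFD) and 5 CD44KO(HFD) mice, with the mean and SD. Each point is an array, and all were well above background; the Msr1 groups touch without overlapping at 1.97 and the other 9 pairs of groups overlap.

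Msr1 was the 1 gene of the 10 whose WAT groups did not overlap, and 1.91% of all genes tested were lower without overlap. By its brightest probe WT(HFD) arrays read 2.29, 2.12, 1.97, 2.01 and 2.08, and CD44KO(HFD) arrays 1.03, 0.57, 1.97, 1.56 and 1.56. The 2 groups touched, CD44KO(HFD) replicate 3 lying beside the lowest WT(HFD) array and replicates 1 and 2 far below it. The difference was -0.75 ± 0.25 (SE, n = 5 per group; limma adjusted p = 0.231). The other 2 probes gave -0.20 and -0.88 with overlap, so the size differed between probes. Within slide 1, which held 2 arrays of each genotype, the difference was -1.08, and within slide 2, with 3 arrays of WT(HFD) and 1 of CD44KO(HFD), it was -0.09. Slide 3 held WAT arrays of CD44KO(HFD) alone, replicates 1 and 4, so slide and genotype are partly tied in WAT.

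Emr1 and Cd68 overlapped between genotypes in WAT. Emr1 read 6.17, 6.44, 6.19, 6.61 and 6.09 in WT(HFD) and 5.82, 4.88, 6.64, 6.03 and 6.36 in CD44KO(HFD), a difference of -0.35 ± 0.30 (SE, n = 5 per group; limma adjusted p = 0.577), and its dimmer probe gave -0.83 (adjusted p = 0.404). CD44KO(HFD) replicate 2 was the lowest array by both Emr1 probes. Cd68 read 4.32, 4.50, 4.88, 4.62 and 3.73 against 3.59, 3.45, 3.76, 4.07 and 4.04, a difference of -0.63 ± 0.23 (SE, n = 5 per group; adjusted p = 0.259). Every CD44KO(HFD) value of Cd68 was under the mean of WT(HFD), and WT(HFD) replicate 5 lay among them.

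The probes of Lyz2 disagreed in WAT. The brighter, at chr10:116785279-116785338 in build mm7, read 7.09, 7.75, 7.55, 7.70 and 7.44 in WT(HFD) and 7.70, 7.77, 7.62, 7.30 and 7.54 in CD44KO(HFD), a difference of 0.08 (limma adjusted p = 0.809) that turned to -0.02 without WT(HFD) replicate 1. On these arrays its signal was 335500 to 448500, between 12th and 30th of all probes from the top, though no spot was marked as saturated. The dimmer probe, shown above, read 3.22, 3.22, 3.24, 3.29 and 3.35 against 2.52, 1.69, 2.65, 2.83 and 2.96. By it the groups did not overlap, with a difference of -0.74 ± 0.23 (SE, n = 5 per group; limma adjusted p = 0.214; exact permutation p = 0.0079, unadjusted).

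The lipid-associated genes overlapped between genotypes in WAT. Trem2 read 6.47, 6.70, 6.73, 6.84 and 5.80 in WT(HFD) and 6.06, 5.97, 6.69, 6.07 and 6.28 in CD44KO(HFD), a difference of -0.29 ± 0.23 (SE, n = 5 per group; limma adjusted p = 0.544). Gpnmb read 5.02, 5.46, 5.66, 5.24 and 3.96 against 4.26, 4.34, 4.17, 4.94 and 4.85, a difference of -0.56 ± 0.32 (SE, n = 5 per group; adjusted p = 0.425). In both genes WT(HFD) replicate 5 was the lowest array of all 10, and for Gpnmb the other 4 WT(HFD) arrays were above every CD44KO(HFD) array. The dimmer probes gave -0.51 for Trem2 (limma adjusted p = 0.349) and -0.79 for Gpnmb (adjusted p = 0.366). By each of them WT(HFD) replicate 5 was again the lowest array and the other 4 WT(HFD) arrays lay above every CD44KO(HFD) array.

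WT(HFD) replicate 5 was also the lowest of all 10 WAT arrays for Lgals3 and Cd9, whose WT(HFD) values ran from 6.01 to 6.90 and from 4.38 to 5.31. The corresponding CD44KO(HFD) ranges were 6.04 to 6.49 and 4.48 to 4.94, and the differences -0.26 (limma adjusted p = 0.515) and -0.34 (adjusted p = 0.435). The second Cd9 probe, dimmer but well above background on all 10 WAT arrays, went the other way, at 0.18 (adjusted p = 0.758). For Cd63 the ranges were 5.80 to 6.47 and 5.63 to 6.22, with a difference of -0.31 (adjusted p = 0.44).

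Atp6v0d2, the pump subunit, could be compared in WAT. WT(HFD) arrays read 1.18, 1.59, 1.83, 1.77 and 0.66, and CD44KO(HFD) arrays 0.17, 0.42, 1.53, 1.5 and 1.31. CD44KO(HFD) replicates 1 and 2 were the lowest, as they were for Msr1, and the difference was -0.42 ± 0.34 (SE, n = 5 per group; limma adjusted p = 0.553). In liver its signal ran from -5.55 to -4.29, with WT(HFD) replicate 1 alone well above background, so no liver difference is given.

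None of the 21 lists held a call in WAT by limma, although 68 of their 246 genes tested had an unadjusted p under 0.05, against 15.8% of all genes. Of 28 further monocyte and macrophage genes 28 were lower, with a median of -0.50, and of 30 lipid-associated genes 18 were lower, with a median of -0.25. Medians of the other lists of related genes were -0.04 for the proton pump, -0.13 for lysosomal genes, 0.24 for tetraspanins, -0.25 for scavenger receptors, 0.16 for galectins and -0.30 for TREM and DAP12 signalling. Tyrobp gave -0.40 (adjusted p = 0.518), Spp1 0.31 (adjusted p = 0.693) and Lgals1 0.41 (adjusted p = 0.393). Without WT(HFD) replicate 1, the 28 monocyte and macrophage genes were again all lower, with a median of -0.58, and 1 of them, Ncf1, passed (-1.296, adjusted p = 0.0466), a gene named after its values were seen. The median of the 30 lipid-associated genes was then -0.32, and the other lists of related genes held 0 calls.

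Cell markers differed in level between the WAT samples. Adipocyte markers were all higher in CD44KO(HFD), 10 of 10, with a median of 0.65 and a summed level of 565 to 972 in WT(HFD) against 854 to 1428. Markers of mesothelium, 6 of 6 lower, had a median of -2.32 and a summed level of 2.31 to 11.4 against 1.04 to 3.49. For B and plasma cells the median was -1.20 and the summed level 2.29 to 42.8 against 1.06 to 4.15, and for T cells they were -1.14 and 2.33 to 11.2 against 2.03 to 2.48. Medians of the other marker lists ran from -1.11 for bile duct epithelium to 0.88 for hepatocytes. Without WT(HFD) replicate 1 the lowest adipocyte sum of WT(HFD) was 830 in place of 565 and the median was 0.51, while the WT(HFD) sums of mesothelium, B and plasma cells and T cells kept their ranges and the medians were -2.19, -0.85 and -1.22. The median of neutrophil markers turned from -0.46 to 0.12 and that of epididymis markers from -0.20 to 0.28. The part of these cells in the WAT differences was not tested.

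Those genes most like the mean of the 10 over the WAT arrays, among 18359 compared, were P2ry6 (Pearson r = 0.970), C77080 (0.967), Anpep (0.965), Apobr (0.963) and Arhgap25 (0.955). After each genotype's mean was taken off, they were Apobr (0.969), P2ry6 (0.957), Agap1 (0.954), Anpep (0.951) and Nrep (0.951). P2ry6 encodes a receptor for extracellular UDP, and Apobr a receptor by which macrophages take up lipoproteins. Arhgap25 was among the 5 most like the mean in both tissues.

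The genotype difference was set against itself between the tissues by an interaction term in a fit of all 20 arrays. That fit took the arrays as independent, since the labels do not say whether a liver and a WAT sample came from one mouse. Of the 9 genes measured in liver 1 passed, Trem2, where 1.37% of 19435 genes passed. The fall of Trem2 in liver exceeded its WAT difference by 2.24 ± 0.49 (SE, n = 20 arrays) on the log2 scale (limma adjusted p = 0.0388), and by 2.13 by the dimmer probe (adjusted p = 0.0493). Both lie near the threshold, and the brighter probe passed in 11 of 28 alternative fits, with adjusted p from 0.00579 to 0.121 and differences from 1.90 to 2.53.

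Gpnmb gave 3.85 ± 0.95 (SE, n = 20 arrays; limma adjusted p = 0.056) and rests on dim liver signals. For Cd63 and Lgals3 the tissue differences were 1.37 and 1.07, with adjusted p of 0.202 and 0.204. The other 5 genes had adjusted p from 0.407 upwards, so that for 8 of the 9 a difference between tissues was not shown. For Msr1 the differences were alike in size, -0.80 in liver and -0.75 in WAT, with an interval of -0.75 to 0.84 for the tissue difference.

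**Figure D5:**
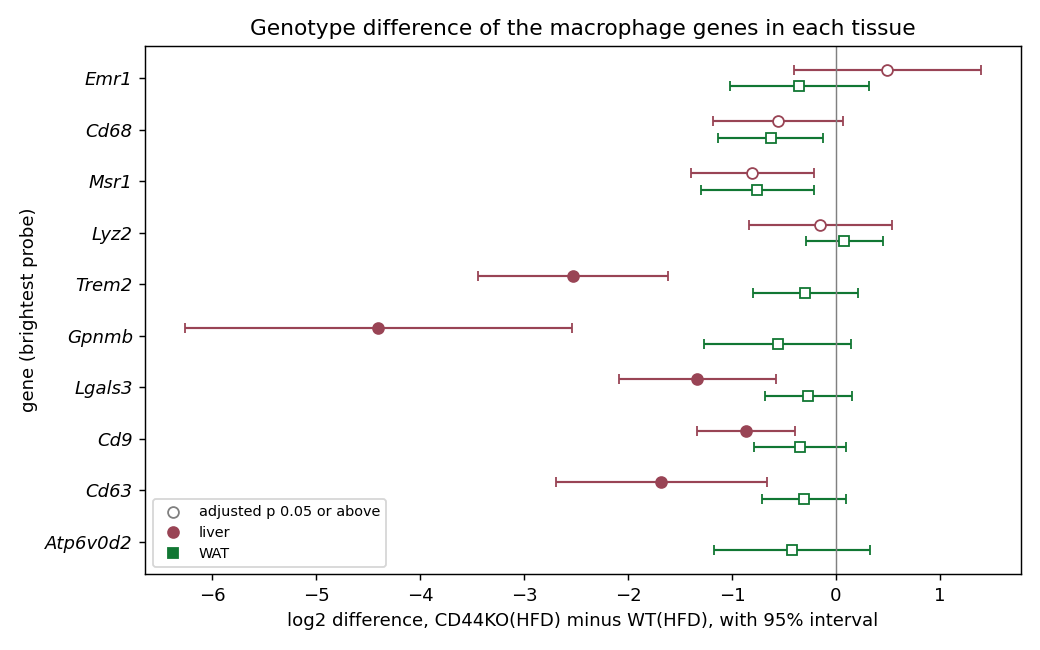
Log2 difference between CD44KO(HFD) and WT(HFD), with 95% intervals, for the brightest probe of each gene in liver (circles) and WAT (squares); filled symbols passed an adjusted p of 0.05 by limma. Trem2, Gpnmb, Lgals3, Cd9 and Cd63 are filled in liver, from -0.86 to -4.40, and no WAT symbol is filled.

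By the brightest probe each of the 9 genes measured in liver was higher in WAT than in liver of WT(HFD) mice, where 33% of all genes tested were higher in WAT. The difference was 1.67 (3.18-fold) for Lyz2 and 6.55 (94.0-fold) for Gpnmb. Atp6v0d2 had 1 liver signal well above background, and its tissue difference is not given. For Trem2 it was 4.74 ± 0.35 (SE, n = 5 per group; limma adjusted p = 6.8e-10). In each gene the 2 WAT groups stood above the 2 liver groups. Within WAT no neighbouring pair of genotypes differed by the test, and within liver those of Trem2, Gpnmb, Lgals3, Cd9 and Cd63 did. Since tissue, slide and scanner coincide, these are differences between 2 sets of arrays.

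Start-site windows were looked at because several of the genes moved together. RefSeq windows of build GRCm38.p6, from 250 bases before the start site to 50 after it, were at hand for 7 of the 10 genes and were searched on both strands. One motif was the E-box CACGTG, which 7.15% of all 32851 windows hold, with its longer form TCACGTGA, which overlaps it and is held by 0.974%. The second E-box searched was CATGTG, which 14.2% hold. The other motifs were GAGGAAGT, a site of the type that PU.1 binds, in 3.2% of windows, and the AP-1 site TGACTCA, in 5.2%. The AP-1 letters were found in Gpnmb at position 9 counted from the start, and in Cd68 at positions -149 and -24 on the other strand. The second E-box was found in Cd9 at position -38. None of the 5 motifs was found in the windows of Trem2, Lgals3, Cd63 and Lyz2. The 170 bases around the start of Trem2 and Gpnmb, which passed with any liver array left out, and of Cd68 are shown, with capitals for the AP-1 letters as they read on the strand printed.
Trem2, chr17:48346251-48346420, plus strand: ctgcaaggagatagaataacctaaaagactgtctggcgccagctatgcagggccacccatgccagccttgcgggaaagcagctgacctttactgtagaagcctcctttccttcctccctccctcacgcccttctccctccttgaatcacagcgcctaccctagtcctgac
Gpnmb, chr6:49036368-49036537, plus strand: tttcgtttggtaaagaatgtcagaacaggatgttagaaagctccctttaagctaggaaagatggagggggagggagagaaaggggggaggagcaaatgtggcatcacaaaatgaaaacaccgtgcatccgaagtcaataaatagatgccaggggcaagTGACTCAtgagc
Cd68, chr11:69666151-69666320, minus strand: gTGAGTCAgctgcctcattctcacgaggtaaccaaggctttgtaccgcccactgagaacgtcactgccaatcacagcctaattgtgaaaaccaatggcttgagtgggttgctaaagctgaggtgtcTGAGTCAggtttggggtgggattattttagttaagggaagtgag
A match is a description of letters and not of a bound site. Gpnmb and Cd68 both hold the AP-1 letters, with liver differences of -4.40 and -0.55, and Trem2 holds none of the 5 motifs in this window.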

How the data were processed

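RNA of liver and WAT was read with a single dye on Agilent arrays, 1 per sample. The authors deposited linear intensities, the processed signals of Feature Extraction 9.5.3.1, in which that software had evened out trends across the array, kept the local background and put estimates in place of the dimmest values, with no scaling between arrays. Here log2 was taken, outlier-marked spots were dropped, the 75th percentile of the non-control spots of each array was subtracted, and replicate spots were averaged. A probe was tested if 3 or more of the 5 arrays of a group had it well above background. Linear models were fitted and moderated with limma 3.58.1 under R 4.3.3 (statmod 1.5.0 for weights), with Benjamini-Hochberg adjustment over all probes tested and a threshold of 0.05, and were tested on simulated data first. The brightest tested probe stood for a gene. Genes named were the 10, their direct partners, the 5 nearest in pattern per tissue and, from each list, at most 4 called genes with the largest change. Beyond these, Ly6c1, the fifth stellate marker and the 2 higher T cell markers were named after their values were seen. Genes and lists were chosen with earlier results of these data known. Samples are from separate mice of a genotype, and p-values measure the spread between them. The number of arrays limits the precision. Alternatives were normexp, quantile and median scaling, other filters, single arrays left out, replicate and slide blocks, array weights, 1 fit of all 20 arrays, outlier spots kept and the mean of a gene's probes. WAT lists without WT(HFD) replicate 1 were an alternative chosen after seeing the data.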

Additional observations from a re-analysis of the deposited data

Results flagged for a closer look

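The Trem2 difference between CD44KO(HFD) and WT(HFD) differed between the tissues by the interaction test, by 2.24 for the brighter probe and 2.13 for the dimmer one, with limma adjusted p of 0.0388 and 0.0493.

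Among 72 groups of 5 arrays, 18 probes in 4 groups, 8 held an array whose gap to the others exceeded Dixon's 95% value, where chance gives about 1 in 20. In WT(HFD) liver these were replicate 3 for Emr1 (0.78) and for the third Msr1 probe (-3.58), and replicate 1 for Atp6v0d2 (-4.29). In WT(HFD) WAT they were replicate 5 for the dimmer probes of Trem2 (3.78) and Gpnmb (-2.97), and replicate 1 for the third Msr1 probe (1.27) and the third Cd9 probe (-5.29, not well above background). In CD44KO(HFD) WAT it was replicate 2 for the second Cd9 probe (-1.99).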

How the results depend on the processing

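In liver 5 of the 10 genes were called, and all 5 passed under quantile scaling, median scaling, the stricter filter, the slide block, 1 fit of all arrays, array weights (6 called), outlier spots kept and the mean of a gene's probes, and 4 under normexp. With no filter on dim probes 2 passed, and 41174 probes were then fitted and adjusted for in place of 24689. With single arrays left out the count ran from 2 to 6. In WAT the count was 0 in every leave-one-out fit and in all alternatives but array weights, where it was 2, and 2814 probes were then called in place of 11. For the difference between tissues, 1 gene was called, 0 under quantile scaling, 0 with no filter, 2 under the stricter filter and 2 with array weights, and 0 to 2 with single arrays left out. All 10 genes were higher in WAT under every alternative run, Atp6v0d2 from dim liver signals. Quantile scaling moved the median of all WAT probes from -0.06 to 0.10 and turned the Lyz2 difference in WAT to -0.14. That difference was also -0.15 with array weights, -0.33 as the mean of both probes and between -0.0222 and 0.15 with single arrays left out. In liver the Lyz2 difference ran from -0.37 to 0.0346. The cause was not tested. Dim signals limit Gpnmb and Atp6v0d2 in liver.

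Replicates with the same number in the 2 genotypes deviated together with r from -0.04 to 0.42 in liver and from -0.21 to 0.09 in WAT, so that not every pair was over 0.1 and the numbers were not taken to pair mice, though some same-numbered arrays shared a slide. With the replicate number as a block, 3 genes were called in liver (Trem2, Gpnmb and Cd9, not Lgals3 and Cd63), 0 in WAT and 0 for the difference between tissues, where no gene on the array passed.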
